A study of Mus musculus with 4 samples.

Results

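The genes described here are 8 interferon-gamma-responsive genes of mouse liver: the immunity-related GTPases Igtp, Irgm1 and Iigp1, the guanylate-binding proteins Gbp2 and Gbp3, the chemokines Cxcl9 and Cxcl10, and the transcription factor Irf1. They were chosen by name, and all probes that the platform annotation assigns to them were read, which gave 18 probes of 25697 on the array and 8 genes of 16593. The study measured total RNA of mouse liver on Illumina single-colour bead arrays. It compared 2 arrays of control liver with 2 arrays of liver from liver-specific ROCK1 KO mice, and the mice of both groups had eaten normal chow for 16 weeks. ROCK1 is a protein kinase that phosphorylates regulators of myosin and the actin cytoskeleton. The labels used here give no strain, sex, age, driver of the deletion, further genotype of the controls or number of animals behind each array. The p-values therefore measure the spread between these arrays, which may be technical.

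Interferon-gamma is a cytokine made mainly by natural killer cells and T cells. It binds the receptor chains Ifngr1 and Ifngr2, which signal through the kinases Jak1 and Jak2, and the response acts on gamma-activated sites in promoters. Irf1 is itself induced and binds interferon-stimulated response elements, which spreads the response to further genes. In mice the immunity-related GTPases and the guanylate-binding proteins act in cell-autonomous defence against vacuolar pathogens, while Cxcl9 and Cxcl10 attract T cells and natural killer cells that carry the receptor Cxcr3. In liver, hepatocytes, macrophages and sinusoidal endothelial cells can all respond to this cytokine.

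As a check of the labels, the Rock1 probe (ILMN_2742675) read, as log2 of quantile-normalised intensity plus 16, 8.51 and 8.51 in the controls and 8.06 and 7.91 in the KO livers, a difference of -0.53 (limma adjusted p 0.0181). Leaving out control replicate 1 (0.0943), the other control (0.0965) or KO replicate 2 (0.0994) ended the call. Whether that probe lies in the deleted part of the gene was not tested. Pearson's r over all probes was 0.991 for arrays of the same genotype and 0.975 to 0.976 for arrays of different genotype.

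Igtp and Cxcl9 were lower in the ROCK1 KO livers, by 2.18-fold and 2.72-fold, and they were the only members called lower. The other chemokine, the other regulatory GTPase and both guanylate-binding proteins did not pass the test. Irf1, which sits upstream of many of these genes, had 1 of its 5 probes called higher. A probe was called at an adjusted p under 0.05 in limma, with Benjamini-Hochberg adjustment over all 25697 probes. All values below are on the same log2 scale, and a value over 7.86 is above background. By this rule 2 of the 18 member probes were called lower and 2 higher (11.1% each), against 4.32% of all probes called lower and 3.69% called higher. Among the 9 member probes that exceeded background on 2 or more arrays, the calls were 2 lower and 1 higher, against 10.3% lower and 8.12% higher among all 9497 such probes. The higher one, of Irf1, passed this limit on the KO arrays only. Both KO arrays lay below both control arrays for 6 of the 18 member probes (33.3%), against 25.8% of all probes, and above them for 3 (16.7%), against 26.1% of all probes. The median difference over the 18 probes was -0.03, with 10 of them below 0, and that over the 8 genes by their brightest probe was -0.17, against 0.00 over all probes and all genes.

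The 2 control arrays were not alike for these genes. All 9 of these member probes were higher in control replicate 1 than in control replicate 2, by a median of 0.40 and a range of 0.08 to 1.31. Over the 9497 probes of the whole array past the same limit, 51.1% read higher in control replicate 1 and the median gap was 0.01. Of the same 9 probes, 8 were higher in KO replicate 1 than in KO replicate 2, with a smaller median gap of 0.05. The size of the fall of Igtp and Cxcl9 therefore depends on which control array is used, and 2 arrays cannot show which is less typical.

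**Figure D1:**
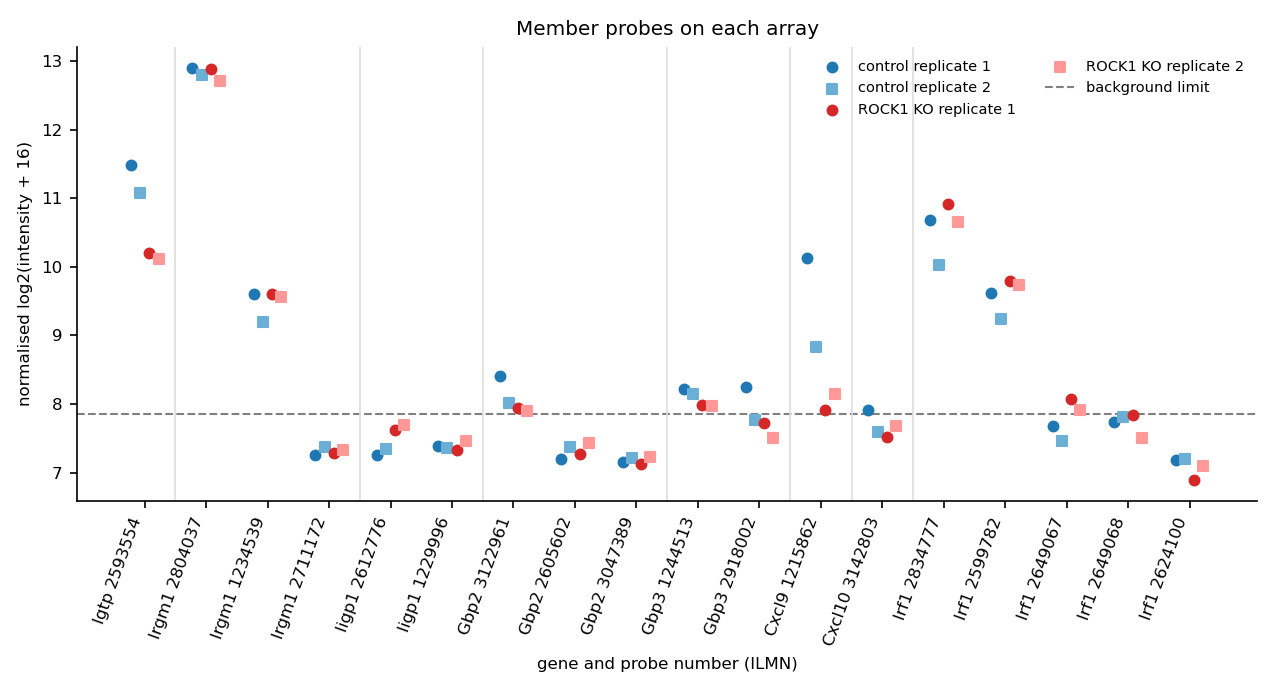
Normalised log2 intensity of each of the 18 member probes (horizontal axis, gene and probe number) on each of the 4 arrays, with control and ROCK1 KO arrays as separate marks and the background limit of 7.86 as a line. Igtp and Cxcl9 lie lower on both KO arrays than on both control arrays, and control replicate 1 is the highest array for both.

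Igtp, also called Irgm3, is a regulatory immunity-related GTPase that guards the cell's own membranes from the effector GTPases. Its only probe (ILMN_2593554) read 11.48 and 11.08 in the control livers and 10.21 and 10.11 in the KO livers. Both KO arrays were below both controls, and the gap between the groups was larger than the gap between the controls. The difference was -1.12 (SE 0.175, 95% interval -1.505 to -0.74, n = 2 per group), a 2.18-fold fall with an adjusted p of 0.00293 in limma. Before normalisation the same probe read 2946 and 1554 intensity units in the controls and 1345 and 1196 in the KO livers, on arrays whose most frequent value was 128, 124, 180 and 181. With 1 array left out in turn the difference lay between -1.33 and -0.92 and stayed called each time. With control replicate 1 left out and only probes above background on at least 2 arrays tested, which was tried after the data were seen, the adjusted p was 0.0597. Igtp and Irgm2 are close relatives, and whether the Igtp probe separates them was not tested.

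**Figure D2:**
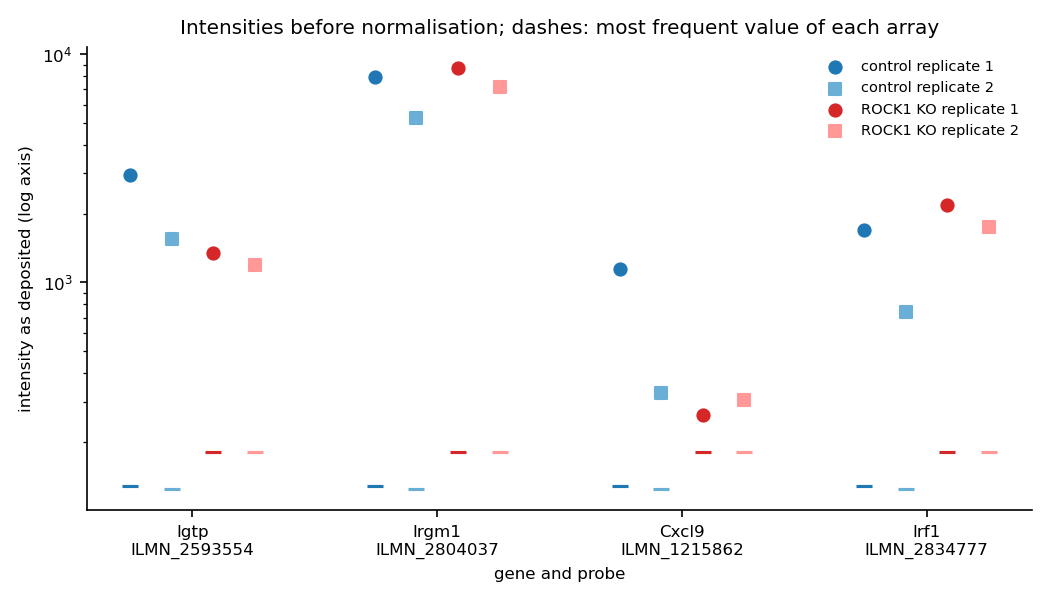
Deposited intensity before normalisation (vertical log axis) of the brightest probes of Igtp, Irgm1, Cxcl9 and Irf1 (horizontal axis) on the 4 arrays, with dashes at the most frequent value of each array. The KO arrays have a higher most frequent value (180 and 181) than the control arrays (128 and 124), while Igtp and Cxcl9 read lower on them.

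Irgm1 is the other regulatory GTPase among the members, needed in mice for control of intracellular bacteria. Its brightest probe (ILMN_2804037) read 12.90 and 12.79 in the controls and 12.88 and 12.70 in the KO livers. The groups overlapped, and the difference was -0.06 (95% interval -0.36 to 0.25, limma adjusted p 0.863), an interval that does not reach the size of the Igtp fall. The next probe (ILMN_1234539) read 9.60 and 9.19 against 9.61 and 9.56, a difference of 0.19 (adjusted p 0.557 in limma). A last Irgm1 probe (ILMN_2711172) was above background on no array and differed by -0.01. The 2 well-measured Irgm1 probes therefore differed in sign, and neither passed the test.

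Igtp and Irgm1 lie on the same chromosome and belong to the same family, the first was called lower and the other was not (the difference between them was not tested), so the sequence before each start site is shown. The sequences are RefSeq's for GRCm38.p6, printed 5′ to 3′ along the gene's strand, as the 250 bases before the annotated start. They run over chr11:58199306-58199555 on the plus strand for Igtp and chr11:48871421-48871670 on the minus strand for Irgm1. Capitals mark matches to the gamma-activated site TTCNNNGAA and to an interferon-stimulated response element taken as GAAA, any 2 bases, then GAAA, each searched on both strands.
Igtp: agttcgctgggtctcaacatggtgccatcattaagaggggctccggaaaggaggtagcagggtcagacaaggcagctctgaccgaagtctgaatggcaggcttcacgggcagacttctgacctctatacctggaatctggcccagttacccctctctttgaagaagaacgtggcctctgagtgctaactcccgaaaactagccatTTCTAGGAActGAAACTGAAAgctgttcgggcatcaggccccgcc
Irgm1: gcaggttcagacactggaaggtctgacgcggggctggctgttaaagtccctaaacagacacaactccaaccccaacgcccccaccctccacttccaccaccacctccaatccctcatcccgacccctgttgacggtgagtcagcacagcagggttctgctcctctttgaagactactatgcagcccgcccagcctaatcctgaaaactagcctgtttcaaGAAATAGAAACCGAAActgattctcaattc
The Igtp sequence holds 1 gamma-activated site match, TTCTAGGAA, that begins 45 bases before the start. It also holds 1 response element match, GAAACTGAAA, beginning 34 bases before the start, and the pair do not overlap. Irgm1 holds 2 response element matches, GAAATAGAAA and GAAACCGAAA, beginning 30 and 24 bases before the start and overlapping in their shared GAAA, and no gamma-activated site match. Of all 32851 RefSeq windows of 300 bases, which add 50 bases after the start, 8.30% hold the first motif and 3.44% the other. A match is a run of letters, and binding was not measured.

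Iigp1, or Irga6, is an effector GTPase that coats and breaks the vacuoles of intracellular parasites in mouse cells. Its brighter probe (ILMN_2612776) read 7.26 and 7.35 in the controls and 7.62 and 7.69 in the KO livers. The test called it higher, by 0.35 (SE 0.0920, adjusted p 0.0403 in limma), but no array was above the background limit, so no fold is given. Left out in turn, each of the 4 arrays cost the call, with adjusted p-values of 0.0831 to 0.185. Its intensities before normalisation were 116 and 119 against 213 and 227, with the most frequent value of each array at 128, 124, 180 and 181. The other Iigp1 probe (ILMN_1229996) was also above background on no array and differed by 0.02.

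Gbp2 and Gbp3 are guanylate-binding proteins, large GTPases that gather on pathogen vacuoles after interferon-gamma treatment. The brightest Gbp2 probe (ILMN_3122961) read 8.41 and 8.02 in the controls and 7.95 and 7.90 in the KO livers. Both KO arrays were lower, but the difference of -0.29 (95% interval -0.59 to 0.01, limma adjusted p 0.240) did not pass the test. With 1 array left out in turn it ran from -0.49 to -0.092. The other Gbp2 probes (ILMN_2605602 and ILMN_3047389) were above background on no array and differed by 0.07 and 0.00. For Gbp3, 1 probe (ILMN_1244513) read 8.22 and 8.14 against 7.99 and 7.98, a difference of -0.20 (limma adjusted p 0.321). The other Gbp3 probe (ILMN_2918002) read 8.26 and 7.77 against 7.72 and 7.50, with only control replicate 1 above background. Its difference of -0.40 had an adjusted p of 0.137 in limma, and 0.0438 with control replicate 2 left out. Neither gene was called, and both Gbp3 probes and the bright Gbp2 probe had the KO arrays below the controls. Guanylate-binding protein genes resemble each other in sequence, and cross-hybridisation between their probes was not tested.

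Cxcl9 had the largest difference among the members with all 4 arrays, though not without control replicate 1, where Igtp (-0.92) moved more. Its only probe (ILMN_1215862) read 10.13 and 8.83 in the control livers and 7.92 and 8.15 in the KO livers, and before normalisation 1146 and 328 against 262 and 306 intensity units. Both KO arrays were near the background limit and below both controls, which lay 1.31 apart. The difference was -1.44 (SE 0.306, 95% interval -2.11 to -0.77), a 2.72-fold fall with an adjusted p of 0.0145 in limma. Leaving out control replicate 1 gave -0.79, leaving out the other control gave -2.10, and it was called in both fits. A variance prior that allows for outlying probes gave an adjusted p of 0.295 for the same difference, and the fit on the mean of each gene's probes gave 0.0507. With only probes above background on at least 2 arrays tested, an alternative added after seeing the data, it was not called when control replicate 1 (adjusted p 0.0728 in limma), KO replicate 1 (0.136) or KO replicate 2 (0.110) was left out.

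Cxcl10, the neighbouring chemokine for the same receptor, was measured by 1 dim probe (ILMN_3142803). It read 7.91 and 7.59 in the controls and 7.52 and 7.68 in the KO livers, so only control replicate 1 was above background and the groups overlapped. The difference was -0.14 (95% interval -0.41 to 0.12, limma adjusted p 0.541). Cxcl9 was called lower and Cxcl10 was not, but the difference between them was not tested. A probe this near background cannot show whether Cxcl10 fell like Cxcl9. The sequences before the starts of the pair are shown because the genes lie close together on chromosome 5. They are from the same source as above, over chr5:92328080-92328329 and chr5:92348890-92349139, both on the minus strand.
Cxcl9: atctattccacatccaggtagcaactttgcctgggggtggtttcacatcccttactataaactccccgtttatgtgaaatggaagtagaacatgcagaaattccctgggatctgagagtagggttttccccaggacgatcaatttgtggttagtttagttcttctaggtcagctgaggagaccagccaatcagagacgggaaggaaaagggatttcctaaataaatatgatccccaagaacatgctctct
Cxcl10: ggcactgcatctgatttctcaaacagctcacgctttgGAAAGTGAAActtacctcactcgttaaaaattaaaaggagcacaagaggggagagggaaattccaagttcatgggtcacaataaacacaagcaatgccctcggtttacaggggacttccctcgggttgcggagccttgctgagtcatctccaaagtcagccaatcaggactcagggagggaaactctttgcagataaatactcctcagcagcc
Cxcl10 holds 1 response element match, GAAAGTGAAA, beginning 213 bases before the start. The Cxcl9 sequence holds no match to either spelling, which says only that these letters are not in this window. Of the members not shown, Gbp2 holds 1 response element match and the first of the 2 Gbp3 windows holds 2. The first of the 2 Irf1 windows holds 1 gamma-activated site match, TTCCCCGAA, beginning 90 bases before the start.

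Irf1 is the transcription factor of the set. Its brightest probe (ILMN_2834777) read 10.68 and 10.03 in the controls and 10.91 and 10.65 in the KO livers, a difference of 0.42 (95% interval -0.04 to 0.89, limma adjusted p 0.273) that ran from 0.096 to 0.75 with 1 array left out. The next probe (ILMN_2599782) read 9.63 and 9.24 against 9.79 and 9.74, a difference of 0.33 (limma adjusted p 0.269). A dimmer probe (ILMN_2649067) read 7.68 and 7.47 against 8.07 and 7.91, above background on the KO arrays only. It was called higher, by at least 1.09-fold (difference 0.42, adjusted p 0.0432 in limma), but leaving out control replicate 1 gave 0.0697, control replicate 2 gave 0.259 and KO replicate 1 gave 0.164. The remaining Irf1 probes (ILMN_2649068 and ILMN_2624100) were above background on no array and differed by -0.10 and -0.19. The only Irf1 differences below 0 were thus those of probes above background on no array. The mean over all 5 probes, these included, was 0.18 (limma adjusted p 0.421).

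**Figure D3:**
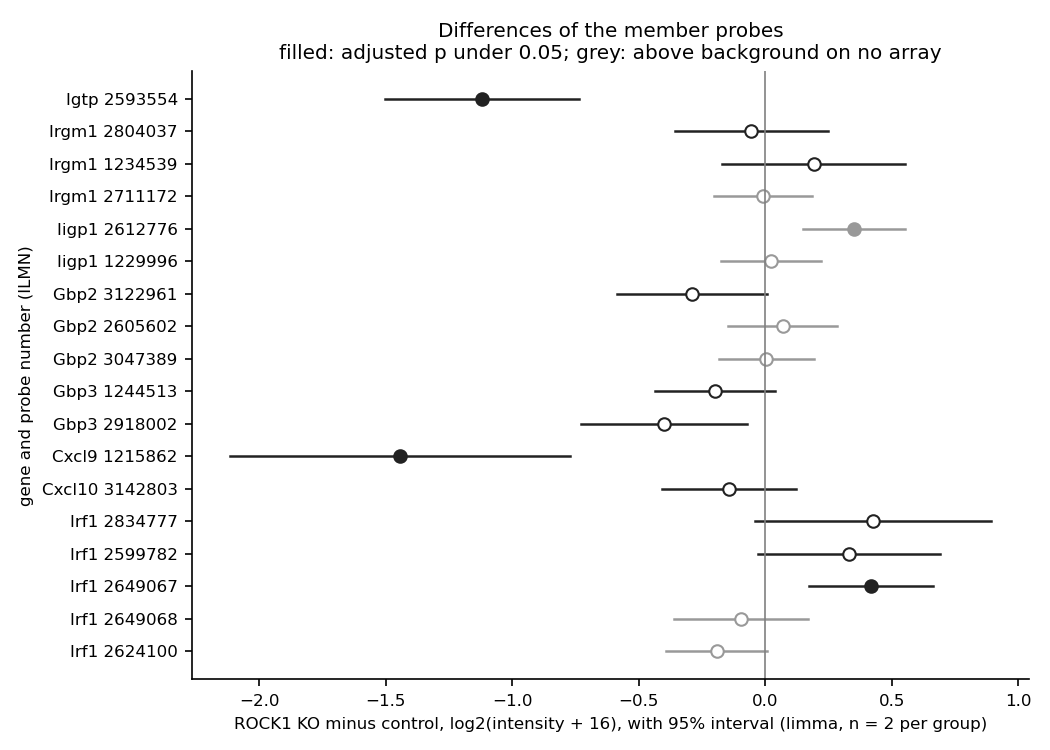
Difference between ROCK1 KO and control (horizontal axis, log2, with 95% intervals from limma) for each of the 18 member probes, with filled marks for an adjusted p under 0.05 and grey marks for probes above background on no array. Igtp (-1.12) and Cxcl9 (-1.44) are the 2 filled marks to the left, and Iigp1 (0.35) and 1 Irf1 probe (0.42) the 2 to the right.

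**Figure D4:**
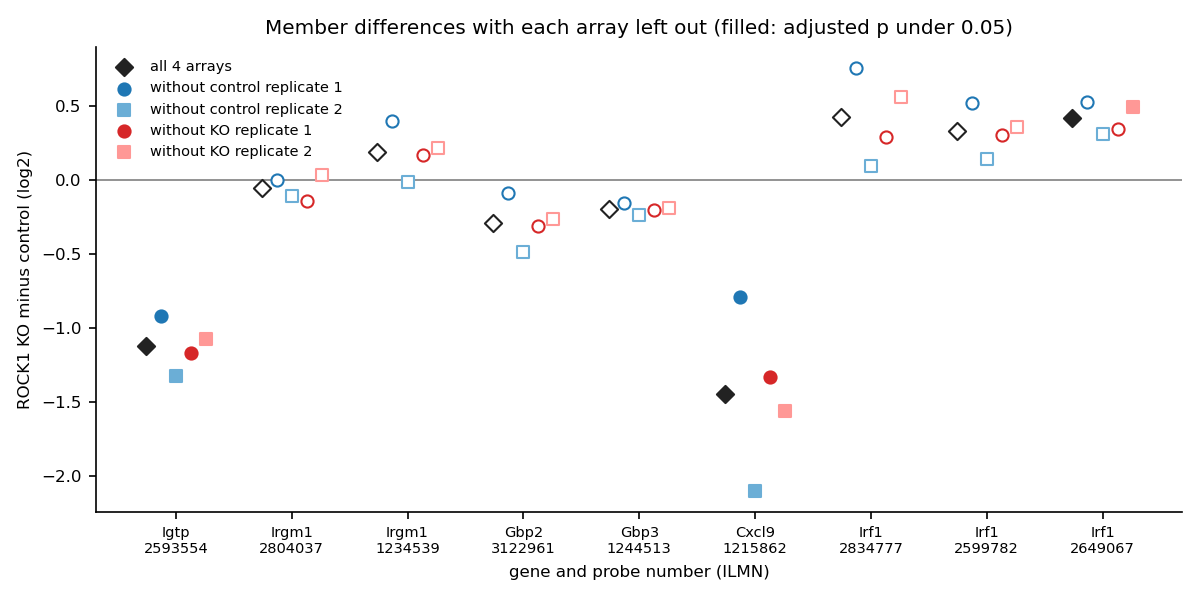
Difference between ROCK1 KO and control (vertical axis, log2) of the 9 member probes above background on 2 or more arrays with each of the 4 arrays left out in turn, filled where the adjusted p was under 0.05. Igtp (-1.33 to -0.92) and Cxcl9 (-2.10 to -0.79) stay filled in each fit.

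Other genes of the pathway were counted in 5 lists, reading each gene by its brightest probe. Over the 121 genes measured in these lists, 17 were called lower and 0 higher, with a median difference of -0.07. Among all 16593 genes 4.63% were called lower and 4.2% higher, and the median was 0.00. A gene called by 2 lists was counted once. The count of lower calls was 9 without control replicate 1, 10 with the other control left out and at most 13 with a KO array left out, and 6 of the 17 genes were called in all 4 of those fits. With dim probes also removed, it fell further in each of these fits. Lower calls over all probes fell in the same fits as well, so the drop is not particular to these lists.

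Among the other immunity-related GTPases and guanylate-binding proteins, 18 of 21 listed genes were measured, 5 were called lower, 0 higher and 13 neither, with a median of -0.07. Irgm2, the remaining regulatory GTPase of the family, read 11.81 and 11.60 in the controls and 10.63 and 10.43 in the KO livers, a difference of -1.17 (limma adjusted p 0.00154). Ifi47, also known as Irgd, read 10.48 and 10.04 against 8.54 and 8.85, a difference of -1.56 (limma adjusted p 0.000594). Igtp, Irgm2 and Ifi47 were each lower on both KO arrays, whereas Irgm1 overlapped. Gbp2b read 8.78 and 8.30 against 7.73 and 7.65, at least 1.60-fold lower, and Gvin1, a very large interferon-inducible GTPase, was at least 1.32-fold lower. Gbp11 was called lower (difference -0.57) with no array above background. Irgm2, Ifi47, Gbp2b and Gvin1 kept the call whichever array was left out. In 10 of the 18 genes no array was above background.

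In the list of interferon-gamma, its receptor and its signal transduction, 22 of 24 genes were measured, 6 were called lower, 0 higher and 16 neither, and the median was -0.05. The 6 lower calls became 2 and 1 when control replicate 1 or 2 was left out, and 3 when either KO array was. Jak1, the kinase bound to Ifngr1, read 9.17 and 8.88 in the controls and 7.89 and 8.13 in the KO livers, a difference of -1.02 (limma adjusted p 0.00167) that kept its call without any 1 array. Ifngr2 differed by -0.41 (limma adjusted p 0.0490), and was called in none of the 4 fits with an array left out. The other Ifngr2 probes differed by -0.38 and -0.28 without a call, and neither was above background on a KO array. Irf2, which can oppose Irf1 on its targets, differed by -0.63, and Stat3 by -0.88. The other Stat3 probes differed by -0.61 (called) and -0.07 (not called). Ciita and Nlrc5, which drive the MHC class II and class I genes, were called lower with no array above background. Ifng itself was above background on no array, at 7.22 and 7.43 in the controls and 7.40 and 7.45 in the KO livers, and Jak2 differed by 0.03.

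Of the chemokines and chemokine receptors outside the members, 33 of 34 were measured, 1 was called lower, 0 higher and 32 neither, with a median of -0.07 and no array above background in 22. Ccl9, a CC chemokine, read 12.35 and 13.03 in the controls and 10.98 and 11.30 in the KO livers, a difference of -1.55 (limma adjusted p 0.00154). Its higher control array was replicate 2, unlike Cxcl9. The genes with the next smallest p did not pass the test: Ccl25 differed by -0.63 (limma adjusted p 0.0563) and Ccl5 by -0.66 (limma adjusted p 0.0620). Ccl5 was above background on control replicate 1 only. Cxcr3, the receptor for Cxcl9 and Cxcl10, was above background on no array.

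The type I interferon response list had 35 of 37 genes measured, 3 called lower, 0 higher and 32 neither, with a median of -0.12. Usp18, a protease that removes Isg15 and restrains the type I receptor, differed by -0.64 (limma adjusted p 0.0273). Its other probes differed by -0.33 and -0.14 without a call. Oasl2 was at least 1.06-fold lower, and the RNA sensor Ifih1 was called lower (-0.50) with no array above background. In antigen processing all 14 listed genes were measured, 3 were called lower, 0 higher and 11 neither, with a median of 0.07. Leaving out control replicate 1 left 1 lower call in the type I list and 0 in antigen processing, and leaving out the other control left 2 and 1. Tapbp, which loads peptides onto MHC class I, differed by -0.62, and its other probe by 0.16 without a call. B2m, the MHC class I light chain, differed by -0.53 on its brightest probe and by -0.32 on another bright probe that was not called. Nlrc5 belongs to this list too.

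**Figure D5:**
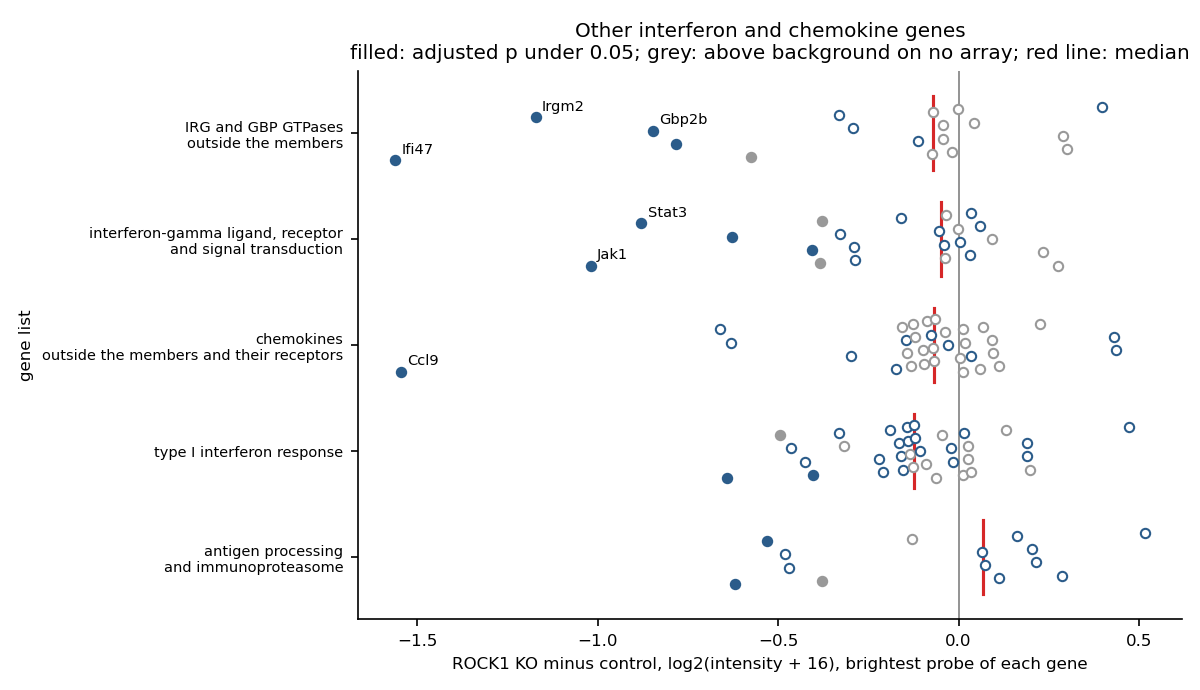
Difference between ROCK1 KO and control (horizontal axis, log2) of every measured gene in the 5 pathway lists, 1 row per list, filled where the adjusted p was under 0.05, grey where no array was above background, with a red line at the list's median. All filled marks lie left of 0, and the medians run from -0.12 to 0.07.

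The arrays read bulk liver, so fewer cells of a type and less RNA per cell cannot be told apart. Of 18 measured hepatocyte markers 15 were above background on at least 2 arrays, with the Alb probe an exception (above background on control replicate 2 only). Of the 18, 9 read 55000 or more on some array, near the top of the arrays' range, where differences are compressed. The summed level of the other 9, as 2 to the power of the log2 values, was 73648 and 96236 in the controls and 97346 and 87921 in the KO livers. That of all 18 was 626247 and 646860 against 594111 and 591924. Rbp4 (-1.21) was called lower, as was Serpina1c (-1.53), whose control arrays were near the top of the range, so that its difference is not exact. Over all 9 marker lists, 10 of 106 genes were called lower and 4 higher, against 4.63% and 4.2% of all 16593 genes. Among probes above background on at least 2 arrays, the share called lower was 10.3%. Macrophage and Kupffer cell markers had 3 of 15 measured genes called lower, 0 higher, with summed levels of 7984 and 6835 against 6240 and 6061. These were Clec4f (-0.63), Adgre1 (-0.84) and Cd163 (-1.32). Dimmer probes above background in the controls were not called and differed by -0.12 for Clec4f and -0.30 for Adgre1, while Vsig4 differed by 0.00, and 5 of the 15 were above background on no array, Marco and Cd5l among them. Sinusoidal endothelial markers had 2 of 14 called lower, Clec4g (-0.94) and Fcgr2b (-0.76), with all 14 differences below 0 and summed levels of 17199 and 15396 against 10741 and 10425. Clec4g alone made up 10014 and 8668 against 5319 and 4457 of these sums, and the other 13 genes summed to 7185 and 6728 against 5421 and 5968. Another Fcgr2b probe above background differed by -0.35 without a call. Stab1 (-0.19) and Stab2 (-0.13) were not called. Leaving out control replicate 1 left 1 macrophage and 0 endothelial markers called lower, and leaving out the other control left 2 and 1. The part of either cell type in the falls of Igtp and Cxcl9 was not tested.

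Markers of T and natural killer cells, which usually make interferon-gamma, were above background on no array in 17 of 20 measured genes, Cd3e and Cd8a among them. In this list Zap70 was called higher (1.53, and 1.42 on another bright probe) and Prf1 lower (-0.95). The summed level was 4345 and 4477 in the controls and 5010 and 4757 in the KO livers. That sum includes the rise of Zap70, while 14 of the 20 differences were below 0 and the list's median was -0.09. No dendritic cell, B cell or neutrophil marker was above background on 2 or more arrays, of 9, 6 and 8 measured. Summed levels were 1593 and 1568 against 1501 and 1545 for dendritic cells, 1035 and 981 against 1121 and 1114 for B cells, and 1619 and 1465 against 1409 and 1448 for neutrophils. Ms4a1 of the B cell list was called higher and S100a9 of the neutrophil list lower, both with no array above background. Of 11 stellate cell markers Col3a1 was called lower, by at least 1.17-fold, with sums of 14802 and 12911 against 12288 and 11765. Of 5 cholangiocyte markers Sox9 was called higher (0.61) and Cldn7 higher by at least 1.06-fold, with sums of 938 and 968 against 1098 and 1196. The part of these cells in the members' differences was not tested.

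The mean pattern of the member genes called by their brightest probe (Igtp, Cxcl9 and Iigp1), each centred on its own mean, was 0.64, 0.10, -0.40 and -0.34 over control replicates 1 and 2 and KO replicates 1 and 2. Igtp (-1.12) and Cxcl9 (-1.44) were lower and Iigp1 (0.35) was higher with no array above background. This mean therefore understates the falls of Igtp and Cxcl9. Among 6836 other genes above background on at least 2 arrays, the nearest by root mean square distance over the 4 arrays were Serpina7 (0.0549 log2 units), Usp18 (0.0558), Fermt2 (0.0576), Pxmp4 (0.0595) and Bcas2 (0.0606). With 4 arrays this likeness is a description only. Of the 5, Serpina7 was not called (limma adjusted p 0.0629), and Usp18, which belongs to the interferon lists above, was called lower on its brightest probe only.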

How the data were processed

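Liver RNA was read on 4 arrays, 1 per sample, with 2 from the control group and 2 from the liver-specific ROCK1 KO group. The authors deposited intensities per probe on a linear scale with no detection p-values in the table, and their lowest values of 79.2 to 110 show that background was left in. The authors also deposited log2 values of the same arrays, which rank the probes of each array in the same order (Spearman 1) and were used as an alternative. Their normalisation is not stated in the sources used here.

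Intensities were quantile-normalised, 16 was added and log2 taken, which shrinks differences of dim probes. Differences were fitted in R 4.3.3 by limma 3.58.1 (lmFit, eBayes with an intensity trend, two-sided, no block, Benjamini-Hochberg over all 25697 probes). The fit was also run on simulated arrays with independent noise and shuffled probe spreads, which does not test the intensity trend. The background limit was the mode plus 3 SD of the values below it. Where 1 group had no array above it, a fold is a bound against the lowest value above the limit. Precision is limited by 2 arrays per group. Probe names came from the platform annotation: 23978 probes had 1 symbol and 1719 none. Median intensities were 145 and 137 in the controls and 203 and 206 in the KO arrays. Promoter windows are RefSeq's for GRCm38.p6 and were read by symbol for 7 of 8 members. Iigp1 was left out of that search, and its window is not reported here. The members, the 5 pathway lists (130 genes) and 9 marker lists (119 genes) were chosen with earlier results of these data known. Named genes are all members, Rock1, every called list gene (in pathway lists up to 3 by p where fewer were called) and the 5 nearest in pattern. Other genes were named after their values were seen: Ifng, Jak2, Cxcr3, Vsig4, Marco, Cd5l, Stab1, Stab2, Cd3e, Cd8a and Alb. Among the genes next to the members, Gbp7, Art3, Scarb2, Slc22a5 and Rad50 were picked by no set rule. Alternatives changed the offset, background correction, scaling, filter, prior, block, threshold and arrays. Whether same-numbered arrays were paired is not known from the labels, and the main fit took them as unpaired.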

Additional observations from a re-analysis of the deposited data

How the results depend on the processing

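Over the 18 member probes, 223 of 251 values under the alternatives kept direction and side of the threshold, 12 lost the call, 2 gained it and 14 changed sign, none of which was called. At an adjusted p under 0.05, Igtp was called in all 15 planned refits of the probe values and Cxcl9 in 14 of 15, not with the robust prior. Cxcl9 was also not called at a threshold of 0.01 or in the planned fit on the mean of a gene's probes (adjusted p 0.0507 in limma), and Igtp was called in both. Member calls (2 lower, 2 higher) were 2 to 3 lower and 0 to 1 higher with 1 array left out. Limiting the probes to those above background on at least 2 arrays as well, added after seeing the data, gave 0 members lower, 76 probes lower and 56 higher over the table and 1 pathway gene lower without control replicate 1, and 2, 160, 87 and 4 without control replicate 2. The same counts were 1, 561, 436 and 7 without KO replicate 1, and 1, 565, 349 and 7 without KO replicate 2, with 0 members higher each time. Lower member calls were 1 with a robust prior and 1 at a threshold of 0.01. Higher ones were 1 with normexp and quantile normalisation, 1 with 75th percentile scaling, 1 with the filter on at least 2 arrays, and 0 with the filter on all 4, without trend and at 0.01. Calls over all probes (1111 lower, 949 higher) were 495 and 300 at 0.01, 1598 higher at 0.1, and 474 to 903 lower and 296 to 824 higher with 1 array left out. Pathway genes called lower (17) were 11 with the filter on all 4 arrays, 10 at 0.01, 11 by the mean of a gene's probes and 9 to 13 with 1 array left out. Pathway genes called higher (0) were 1 with normexp and quantile normalisation, 1 with 75th percentile scaling, 4 with normexp and 75th percentile scaling, 1 with each filter, 2 without trend, 1 with the robust prior, 4 at 0.1, 1 by the mean of probes, and 0 to 1 with 1 array left out. Deviations of same-numbered arrays from their group means had r = -0.057 over all probes. With 2 arrays per group that cannot exclude pairing for some genes. With the replicate block, member calls were 3 lower and 2 higher, and all probes 1480 lower and 1440 higher. Pathway genes were then 20 lower and 4 higher. Scaling at the 75th percentile moved the median of all probes to 0.082, and after normexp to 0.158, and small differences are relative to that. Under these scalings Irgm1 ILMN_2711172 turned to 0.081 and 0.19, and Irf1 ILMN_2649068 to 0.018 under the first. With 1 array left out, 8 probes changed sign: Irgm1 ILMN_2804037 (-0.14 to 0.034), ILMN_1234539 (-0.013 to 0.39) and ILMN_2711172 (-0.062 to 0.042), Iigp1 ILMN_1229996 (-0.036 to 0.082), Gbp2 ILMN_2605602 (-0.021 to 0.16) and ILMN_3047389 (-0.050 to 0.057), Cxcl10 (-0.30 to 0.015) and Irf1 ILMN_2649068 (-0.27 to 0.073). The filter leaves a probe's difference unchanged, so with it Irgm1 ILMN_1234539 again gave -0.013 without control replicate 2. Irgm1 ILMN_2804037 likewise again gave 0.034 without KO replicate 2. The cause of these sign changes was not tested. Of the 18 member probes 7 had no array above background, where these arrays show no fold.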

Other observations

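Genes next to the members in RefSeq's order gave differing values on these arrays. Irgm2 lies beside Igtp and both were called lower. Gbp2b (-0.85, adjusted p 0.00573 in limma) lies between Gbp3 (-0.20) and Gbp2 (-0.29), neither of them called, and Gbp7 on the other side of Gbp3 differed by -0.29 (adjusted p 0.141 in limma). Art3 lies between Cxcl9 and Cxcl10 and was above background on no array. Scarb2, 2 genes beyond Cxcl10, differed by -0.39 (adjusted p 0.138 in limma). Among the neighbours of Irf1, Slc22a5 differed by 0.25 and Rad50 by -0.13, and neither was called.

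Zap70, a kinase of T cell receptor signalling, read 8.88 and 9.13 in the controls and 10.71 and 10.35 in the KO livers (adjusted p 0.000523 in limma), and another probe of it read 8.22 and 8.34 against 9.91 and 9.49. The perforin gene Prf1 read 9.15 and 9.37 against 8.14 and 8.49. Of the other 18 measured T and natural killer cell markers, 17 were above background on no array.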
